A study of Homo sapiens with 6 samples.

Results

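The ERBB receptors and their ligands were followed by name: EGFR, ERBB2, ERBB3 and ERBB4, and the ligand genes AREG, EREG, HBEGF, TGFA, BTC and NRG1. Of these 10 genes, 9 were measured among 18417 genes, all 4 receptors and 5 of 6 ligands. A gene was taken where a probe set carried its symbol alone, and of several the one of highest mean over the 6 arrays was kept. No probe set carried AREG alone, so AREG was not analysed here. The arrays came from MCF10A cells, an immortalised cell line of non-tumorigenic human breast epithelium, in a version that the series names with ErbB2, so every array shares that background. There were 3 arrays of RB-proficient cells, tagged miNS in the titles, and 3 of RB-deficient cells, tagged miRB, all kept in 3-D culture for 7 days within reconstituted basement membrane. The labels do not spell out these tags, do not say which ERBB2 sequence the cells carry, and do not say whether the lines were clones or the replicates separate cultures, so the p-values reflect only how these arrays spread, which may be technical.

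ERBB receptors are tyrosine kinases of the cell surface that pair up when a ligand binds, and then signal through the RAS to ERK cascade and through PI3K and AKT. ERBB2 binds no known ligand and acts as a partner of the others, and ERBB3 has little kinase activity of its own but docks PI3K. In mammary epithelium, amplification of ERBB2 drives a class of breast cancers, and EGF in the medium is the usual mitogen of MCF10A cells.

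Levels are log2 intensities after scaling every array to a common median and setting values under 1 to 1, so that 0 is the floor. Where values are joined by "and then", RB-proficient arrays 1 to 3 come first and arrays 1 to 3 of the other group follow. Differences are on the same scale and take RB-deficient minus RB-proficient arrays, 3 of each, and adjusted p-values come from limma's moderated test over all genes. RB1 itself was 7.01, 5.77 and 7.65 in the RB-proficient arrays, against 3.45, 5.09 and 6.04 in those labelled RB-deficient. Thus RB-deficient 3 lay above RB-proficient array 2, and the direction of every difference rests on the labels. The RB1 difference of −1.95 was −1.25 without the array labelled RB-deficient 1 and −0.77 without both it and RB-deficient 2. Across genes, pairs of RB-proficient arrays had r = 0.90 to 0.92 and pairs of those labelled RB-deficient 0.67 to 0.75. The arrays labelled RB-deficient 1 and 2 stood apart from the other arrays, with 4.71% and 1.62% of genes at the floor, against 0.326% to 0.684% in the other arrays. Of the epithelial and basal markers, EPCAM lay between 9.99 and 10.39 and KRT14 between 7.55 and 9.0 over the arrays. Others were lower, with CDH3 at 2.95 and ITGB4 at 3.16 in the array labelled RB-deficient 2.

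Short stretches before the RefSeq start sites are shown for the 3 receptor genes whose groups did not overlap, to give the letters next to those starts. Which start these cells use was not tested. They are human reference sequence from RefSeq (GRCh38.p14), 5′ to 3′ on the strand of the gene. Entries of 8 of the 10 genes were used, and any on the chromosome of NRG1 were left out. Capitals mark matches, on either strand, to any of 5 motifs: the E2F-type letters TTTCCCGC, TTTCGCGC, TTTGGCGC or TTTGCCGC, the AP-2-type GCCNNNGGC, the TATA-type TATAAA, the GC box GGGCGG and the ETS-type ACCGGAAG. The ERBB2 stretch is the whole 36 bases between the start of ERBB2 and the start of its neighbour PGAP3, which is transcribed the other way (chr17:39688058-39688093, plus strand). The EGFR stretch holds the 250 bases before its first listed start (chr7:55018767-55019016, plus strand), and the ERBB4 stretch the 250 bases before its start (chr2:212538803-212539052, minus strand).
ERBB2: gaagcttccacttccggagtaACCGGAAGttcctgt
EGFR: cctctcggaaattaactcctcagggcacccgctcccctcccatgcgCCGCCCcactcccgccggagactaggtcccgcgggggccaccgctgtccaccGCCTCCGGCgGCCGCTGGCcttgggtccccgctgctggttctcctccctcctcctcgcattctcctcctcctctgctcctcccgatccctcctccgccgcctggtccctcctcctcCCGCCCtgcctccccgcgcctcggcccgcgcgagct
ERBB4: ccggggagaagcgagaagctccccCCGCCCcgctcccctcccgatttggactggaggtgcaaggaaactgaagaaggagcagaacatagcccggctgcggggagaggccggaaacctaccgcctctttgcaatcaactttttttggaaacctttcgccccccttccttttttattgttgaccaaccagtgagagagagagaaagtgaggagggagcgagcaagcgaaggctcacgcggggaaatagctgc
The ERBB2 stretch held 1 ETS-type match and the ERBB4 stretch 1 GC box, while the EGFR stretch held AP-2-type matches and GC boxes. Over all 35116 RefSeq promoter windows of 300 bases, 2.17% held the ETS-type letters, 23.2% the AP-2-type, 45.0% a GC box, 11.5% the TATA-type and 3.31% the E2F-type. None of the 10 windows used, which leave out ERBB3 and NRG1, held the E2F-type letters. Those of EREG, AREG and a second listed start of EGFR held the TATA-type. The motifs were chosen with the sequences in view, and a match is a description of letters.

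The receptors EGFR, ERBB2 and ERBB3, had lower means in the arrays labelled RB-deficient, and ERBB4 had a higher one. Of the ligands, NRG1 was lower without overlap between the groups, and EREG, HBEGF, TGFA and BTC overlapped. No member passed limma's test at an adjusted p of 0.05 (0 of 9, with 0.00543% of all genes passing), and the smallest adjusted p was 0.282. At an unadjusted p under 0.05, 2 of 9 were lower, ERBB2 and ERBB3, where 10.8% of all genes were, and 0 of 9 were higher, where 2.85% of all genes were. In all, 7 of 9 members had a negative difference, beside 58.6% of all genes. The values did not overlap and were lower for 3 of 9 members, beside 15.3% of all genes, and did not overlap and were higher for 1 of 9, beside 7.12%. The median difference was −1.15 over the receptors, −0.36 over the ligands and −0.21 over all genes.

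**Figure D1:**
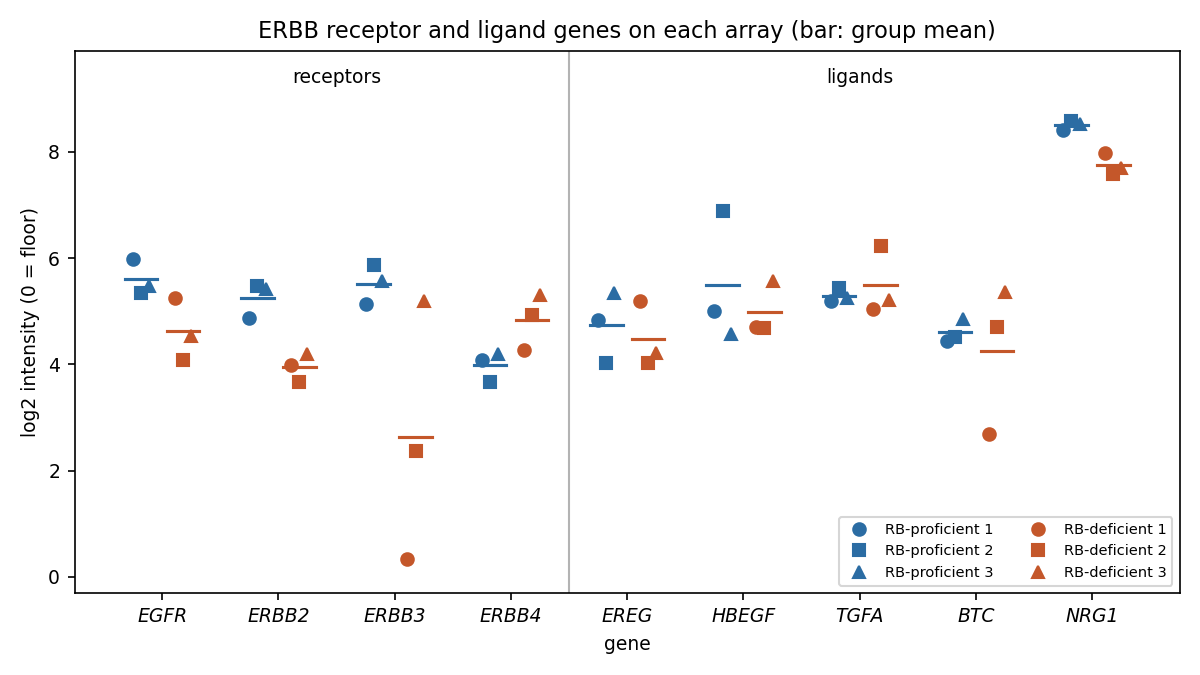
Log2 intensity (vertical axis, 0 is the floor) of the 9 measured ERBB receptor and ligand genes on each of the 6 arrays, with RB-proficient arrays in blue, arrays labelled RB-deficient in orange, a marker shape per array number and a bar at each group mean. With scaling to a common median, EGFR, ERBB2 and NRG1 are lower and ERBB4 is higher without overlap (with centring on the reference genes only ERBB4 does not overlap), and ERBB3 spreads from 0.34 to 5.20 in the arrays labelled RB-deficient.

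ERBB2, the ligand-less partner receptor, was read by probe set 8006906. Its values were 4.87, 5.48 and 5.41 in the RB-proficient arrays, against 3.99, 3.67 and 4.19 in those labelled RB-deficient. Every value of the latter lay below every value of the former, and the 3 were close to each other (SD 0.26). The means of 5.25 ± 0.33 (SD) and 3.95 ± 0.26 (SD) differed by −1.31 (SE 0.48, 95% interval −2.38 to −0.23), which is 2.47-fold lower, with an adjusted p of 0.288. The difference lay between −1.50 and −1.17 with any single array left out and was −1.07 without the arrays labelled RB-deficient 1 and 2. It was −0.79 with an offset of 16 added in place of the floor. ERBB2 was not a bright signal, with scaled intensities of 12.7 to 44.7 before log2. Its mean over all arrays was 4.6, below the gene medians of the arrays, which ran from 4.96 to 5.21. By array, it lay above that array's gene median only in RB-proficient arrays 2 and 3. Whether the probe set reads the introduced ErbB2 as well as the cell's own gene was not tested.

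EGFR, the receptor for EGF and a partner of ERBB2, was read by probe set 8132860. It had 5.99, 5.35 and 5.48 in the RB-proficient arrays, against 5.24, 4.09 and 4.53 in those labelled RB-deficient. The groups did not overlap, but the array labelled RB-deficient 1 lay only just below the lowest RB-proficient array. EGFR differed by −0.99 (SE 0.52, 95% interval −2.15 to 0.17, adjusted p 0.431). It was −0.72 to −1.30 with single arrays left out.

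ERBB3, which heterodimerises with ERBB2 and carries the PI3K docking sites, had the widest spread of the members. Probe set 7956120 gave 5.14, 5.86 and 5.56 in the RB-proficient arrays, against 0.34, 2.36 and 5.20 in those labelled RB-deficient. Array 3 of the latter lay within the range of the RB-proficient arrays, while the arrays labelled RB-deficient 1 and 2 lay far below it. The difference of −2.89 (SE 1.03, adjusted p 0.282) went to −1.74 without the array labelled RB-deficient 1 and to −0.32 without both of these arrays. It was −4.17 without the array labelled RB-deficient 3, −1.12 when the floor was 16 and −1.21 when 16 was added to every value. These are the arrays with the most genes at the floor, and the part of that in the ERBB3 values was not tested.

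ERBB4, a receptor for neuregulins, was the receptor with the opposite sign. Probe set 8058627 gave 4.09, 3.66 and 4.19 in the RB-proficient arrays, against 4.26, 4.93 and 5.31 in those labelled RB-deficient. The groups did not overlap, though RB-proficient array 3 and the array labelled RB-deficient 1 were close. Without scaling to a common median the groups did overlap. ERBB4 was also dim, with scaled intensities of 12.7 to 18.2 in the RB-proficient arrays. ERBB4 differed by 0.85 (SE 0.50, 95% interval −0.28 to 1.99, adjusted p 0.481). It was 1.33 without the arrays labelled RB-deficient 1 and 2, and 0.50 with an offset of 16.

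NRG1, neuregulin 1, the ligand of ERBB3 and ERBB4, had the smallest spread of the ligands in the RB-proficient arrays. Probe set 8145736 gave 8.40, 8.58 and 8.53 there and 7.98, 7.58 and 7.69 with the RB-deficient label. All 3 of the latter lay below, and the difference was −0.75 (SE 0.46, 95% interval −1.79 to 0.28, adjusted p 0.492). A second NRG1 probe set, 8145766, gave 3.95, 4.44 and 2.80 and then 2.73, 5.64 and 4.77, a difference of 0.65 with overlapping groups. The probe sets therefore disagree in sign, and with their mean the NRG1 difference was −0.05.

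The ligands of EGFR overlapped between the groups. HBEGF, a heparin-binding ligand, ranged from 4.57 to 6.89 in the RB-proficient arrays and from 4.68 to 5.56 in those labelled RB-deficient (difference −0.50, SE 0.67). RB-proficient array 2 alone held the high value, and without it the difference was 0.20. TGFA, transforming growth factor alpha, lay between 5.19 and 5.43 in the RB-proficient arrays and at 5.04, 6.22 and 5.21 in those labelled RB-deficient (difference 0.20, SE 0.51). The array labelled RB-deficient 2 was the one high array, and without it the difference was −0.16.

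EREG and BTC, epiregulin and betacellulin, bind both EGFR and ERBB4, and their genes lie near each other and near EPGN and AREG on chromosome 4. EREG had 4.84, 4.02 and 5.34 and then 5.20, 4.02 and 4.21, a difference of −0.26 (SE 0.57) that was 0.05 without RB-proficient array 3 and ran down to −0.62 with other single arrays left out. BTC had 4.43, 4.52 and 4.86 and then 2.68, 4.71 and 5.36, a difference of −0.36 (SE 0.70) that was 0.43 once RB-deficient 1 was left out. The sign of each of these 4 ligand genes thus turned on a single array. Over the 6 arrays EREG correlated with its neighbour EPGN at r = 0.82 and with BTC at −0.48. These are descriptions over arrays that share their scaling. Of 18416 genes other than EREG, 777, EPGN itself among them, had an r with EREG at or above that of EPGN.

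**Figure D2:**
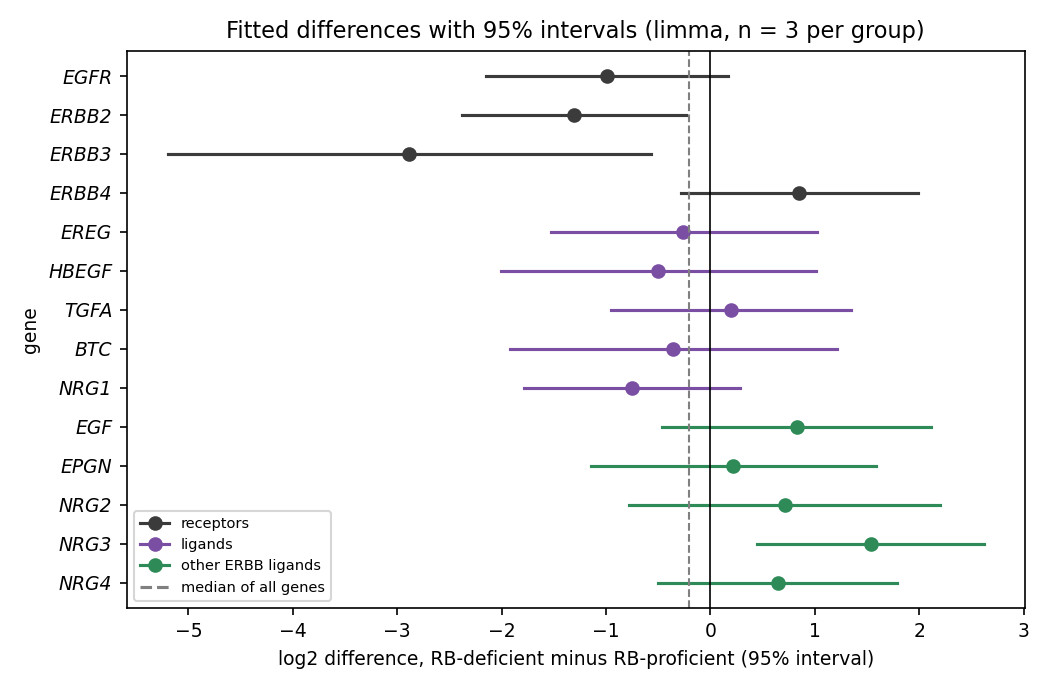
Fitted log2 differences (horizontal axis, RB-deficient minus RB-proficient) with 95% intervals for the receptors, the measured ligands and the other ERBB ligand genes, from limma with 3 arrays per group, with a dashed line at the median of all genes (−0.21). The intervals of ERBB2, ERBB3 and NRG3 leave out 0, and those of the 7 other members include it.

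The other ERBB ligand genes, EGF, EPGN, NRG2, NRG3 and NRG4, had positive differences for all 5, beside 41.4% of all genes. NRG3, a neuregulin for ERBB4, had 5.36, 5.07 and 5.02 in the RB-proficient arrays, against 7.07, 6.76 and 6.24 in those labelled RB-deficient. Its groups did not overlap, and the difference was 1.54 (SE 0.48, adjusted p 0.248). EGF differed by 0.83 (SE 0.57), NRG2 by 0.71 (SE 0.67), NRG4 by 0.65 (SE 0.51) and EPGN by 0.22 (SE 0.61), each with overlapping groups. EGF, the founding ligand of EGFR, was 0.40 without the array labelled RB-deficient 2. NRG4, a ligand of ERBB4, was 0.41 without that array and 0.43 without RB-proficient array 2. NRG2, a ligand of ERBB3 and ERBB4, was 0.04 without the array labelled RB-deficient 1 and 1.30 without RB-deficient 3. The sign of EPGN turned without RB-proficient array 2 (−0.25) or the array labelled RB-deficient 1 (−0.17), while EGF was 0.30 and NRG2 −0.47 without the arrays labelled RB-deficient 1 and 2.

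The size and, for some members, the sign of these differences depended on what the arrays were scaled to. The reference genes ACTB, cytoskeletal actin, and GAPDH, a glycolytic enzyme, differed by −1.92 (SE 0.50) and −1.23 (SE 0.47) without overlap. Over the 11 measured reference genes the mean log2 level was 8.21, 8.00 and 8.63 in the RB-proficient arrays, against 7.80, 7.40 and 7.44 in those labelled RB-deficient. With each array centred on that mean, the median difference over all genes went from −0.21 to 0.52. ERBB2 was then −0.57, EGFR −0.25, NRG1 −0.02, ERBB3 −2.15 and ERBB4 1.59. Under that scaling 0 of 9 members were lower without overlap, beside 3.81% of all genes, 1 of 9 was higher without overlap, beside 25.6%, and EREG (0.48), HBEGF (0.23) and BTC (0.38) turned positive. Relative to the median of all genes, ERBB2 was −1.09, EGFR −0.78, NRG1 −0.54 and ERBB4 1.07 with the settings used throughout.

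**Figure D3:**
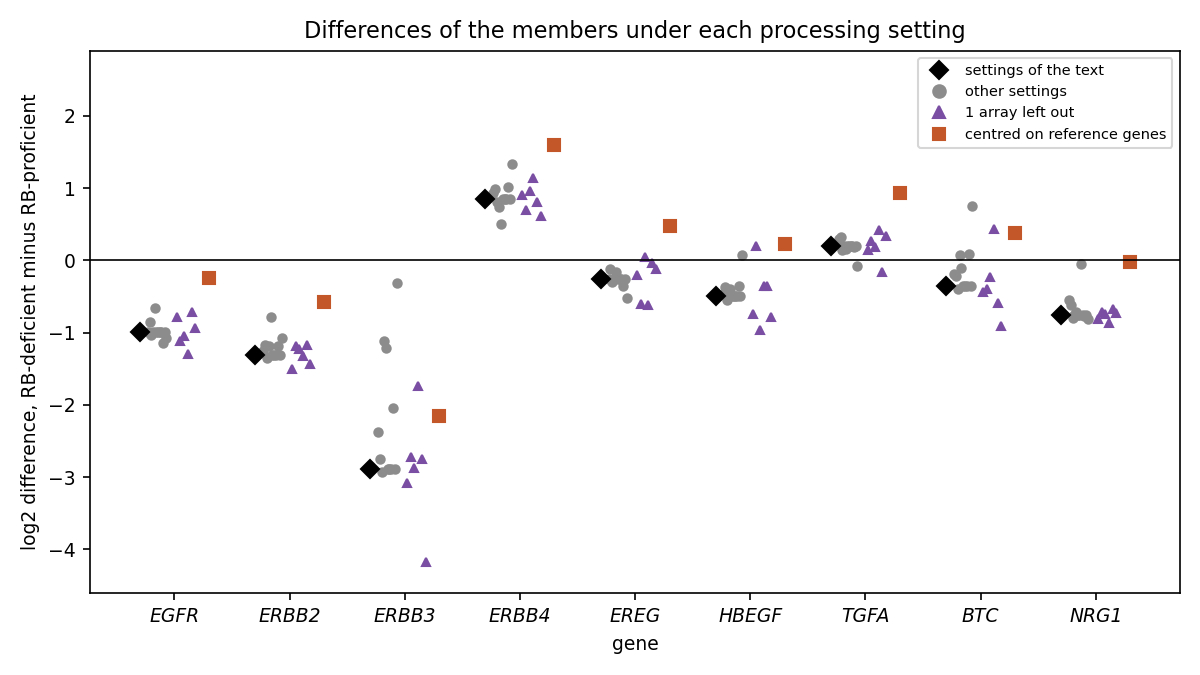
Log2 difference (vertical axis, RB-deficient minus RB-proficient) of the 9 members with the settings of the text (black diamonds), with other settings (grey circles), with 1 array left out (purple triangles) and with arrays centred on the reference genes (orange squares). EGFR, ERBB2, ERBB3 and NRG1 stay below 0 and ERBB4 stays above 0 in every setting shown, while EREG, HBEGF, TGFA and BTC cross 0 in some.

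Most epithelial and basal markers also had lower values with the RB-deficient label. Among the 11 with a probe set, 10 were lower, beside 58.6% of all genes, and 7 were lower without overlap, beside 15.3%, with a list median of −1.33. The exception was EPCAM, an epithelial adhesion protein, which was 0.24 higher (SE 0.46) without overlap. The summed intensity of the list ranged from 5643 to 9340 in the RB-proficient arrays and from 3526 to 4575 in those labelled RB-deficient. ITGB4, the hemidesmosomal integrin, differed by −2.29 (SE 0.52), CDH3, P-cadherin, by −2.63 (SE 0.74), SFN, the epithelial 14-3-3 sigma, by −1.80 (SE 0.49), and KRT5, the basal keratin, by −2.40 (SE 0.90). In these bulk samples, fewer cells of a type and less RNA per cell cannot be told apart, and the part of the epithelial markers in the receptor values was not tested. Summed intensities of other cell types' markers ranged from 179 to 231 (RB-proficient) and 165 to 306 (labelled RB-deficient) for 9 fibroblast genes, from 810 to 919 and 542 to 798 for 7 endothelial genes, and from 347 to 475 and 215 to 279 for 6 leukocyte genes. Such sums weigh bright genes most, here CDH5 (−0.86) and CD68 (−1.16). By gene, 4 were lower and 5 higher, 4 and 3, and 3 and 3, beside 58.6% and 41.4% of all genes. Without overlap, THY1, PECAM1, CDH5 and CD68 were lower, and CLDN5 (0.47) and PTPRC (1.38) higher. COL3A1 and THY1, both fibroblast markers, were at the floor in 1 array labelled RB-deficient each. Of 8 luminal hormone-sensing markers, 7 were higher, beside 41.4% of all genes, and 2 were higher without overlap, PGR and ELF5, beside 7.12%. The luminal keratins KRT8 and KRT18 were counted in the epithelial and basal list. Both were lower without overlap, by −1.33 (SE 0.53) and −1.27 (SE 0.48), so luminal genes did not share a direction. ESR1 differed by 0.12 (SE 0.49), GATA3 by 0.19 (SE 0.56) and FOXA1 by −0.80 (SE 1.00). The summed intensity of the 8 luminal markers ranged from 400 to 467 and from 433 to 926.

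Genes of ERBB signalling, those that restrain it among them, were mostly lower, as were most genes. Over 7 lists of other ligands, sheddases, adaptors, RAS to ERK and PI3K to AKT genes, turnover factors and ERK feedback genes, 84 of 94 genes were measured, and 63 were lower and 21 higher, beside 58.6% and 41.4% of all genes. Groups did not overlap for 18 lower genes and 1 higher gene of the 84, beside 15.3% and 7.12% of all genes. By limma's test 0 passed an adjusted p of 0.05, while 12 lower and 1 higher had an unadjusted p under 0.05, beside 10.8% and 2.85% of all genes. The median difference of these 84 genes was −0.50, and only 30 of them were lower with centring on the reference genes.

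Upstream of the receptors, 10 of 13 genes of ligand shedding were lower, beside 58.6% of all genes, with a median of −0.61. ADAM17, the main sheddase of TGFA, HBEGF and AREG, had 6.08, 6.82 and 5.49 and then 3.95, 4.99 and 6.27, a difference of −1.06 (SE 0.68) with overlap. ADAM15, another metalloprotease, differed by −1.91 (SE 0.67), which was −0.88 without the arrays labelled RB-deficient 1 and 2. RHBDL2, a rhomboid protease, differed by −2.68 (SE 0.98), which was −1.53 once RB-deficient 1 was left out and −1.24 without both. Of 14 adaptor genes 10 were lower (median −0.52), beside 58.6% of all genes. Among them was GRB2, the adaptor that links receptors to RAS, at −1.57 (SE 0.58) without overlap, which was −0.49 without those 2 arrays. GAB1, a docking protein for PI3K, was at 0.82 in the array labelled RB-deficient 1, and its difference of −2.42 (SE 1.06) was −1.07 without that array and −0.37 without RB-deficient 2 as well.

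Downstream, 6 of 7 measured RAS to ERK genes were lower, beside 58.6% of all genes, with a median of −0.59. HRAS, a RAS GTPase, had 5.99, 6.84 and 7.76 and then 4.85, 3.91 and 5.36, which did not overlap, and differed by −2.16 (SE 0.62, adjusted p 0.231). ARAF, a RAF kinase, differed by −1.59 (SE 0.52), and KSR1, a scaffold of the cascade, by −2.0 (SE 0.71), which was −1.15 once RB-deficient 1 was left out and −1.25 without RB-deficient 1 and 2. Of 11 PI3K and AKT genes 10 were lower (median −0.50), beside 58.6% of all genes. AKT2, an AKT kinase, differed by −2.48 (SE 0.63) and MTOR, the growth kinase, by −1.91 (SE 0.54), both without overlap. Without the arrays labelled RB-deficient 1 and 2, AKT2 was −1.59.

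Receptor turnover factors and chaperones had the largest measured list, with 19 of 22 lower, beside 58.6% of all genes, and 6 lower without overlap, beside 15.3% (median −0.64). STUB1, a ubiquitin ligase that acts on HSP90 clients such as ERBB2, had 5.66, 6.58 and 6.96 and then 4.30, 3.04 and 2.89. All 3 values with the RB-deficient label lay below, and the difference was −2.99 (SE 0.59, adjusted p 0.206). The adjusted p of STUB1 ranged from 0.0392 to 0.709 over all alternatives. It was 0.0392 with 16 added to every value and 0.0422 in the eBayes fit with trend and robust. In these fits 193 and 61 genes passed, among them the reference gene ACTB (0.0392 and 0.0464). CBL, the ubiquitin ligase of activated EGFR, differed by −1.92 (SE 0.69), without overlap, and by −0.59 without the arrays labelled RB-deficient 1 and 2. Of 12 ERK feedback genes 8 were lower, beside 58.6% of all genes, with a median of −0.20. SPRED2, an inhibitor of RAF activation, differed by −1.83 (SE 0.62).

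**Figure D4:**
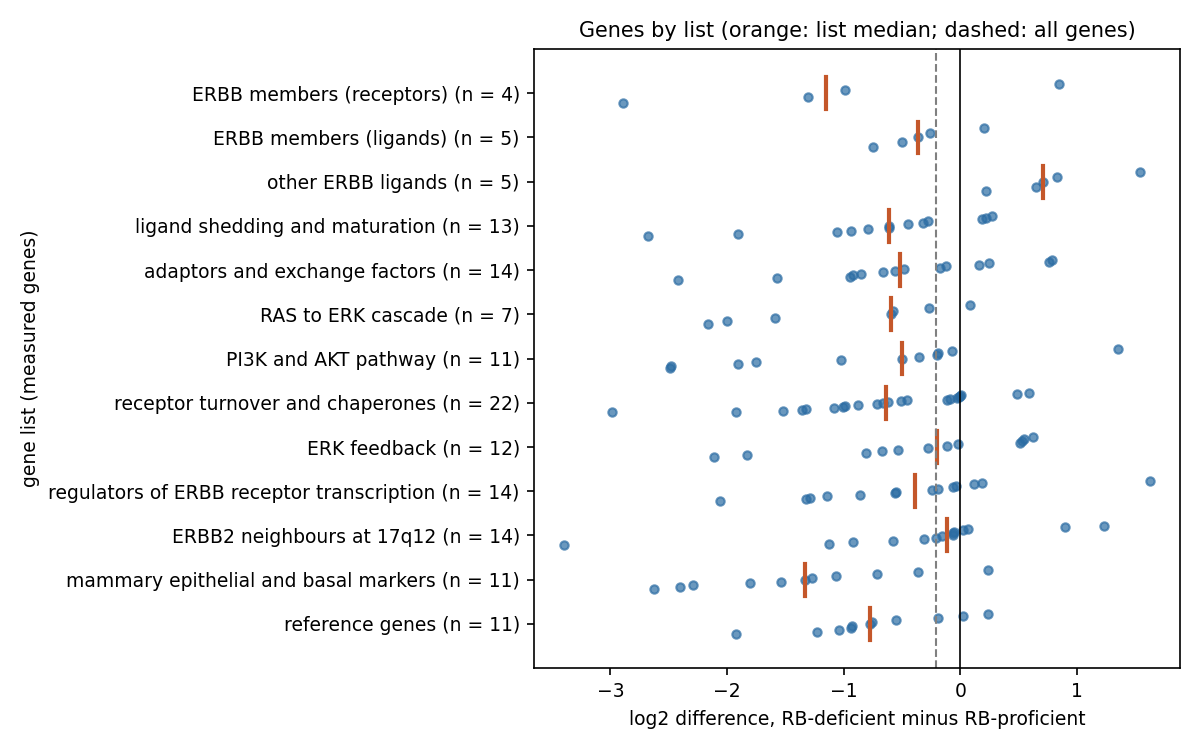
Log2 differences (horizontal axis, RB-deficient minus RB-proficient) of the measured genes of 13 lists, 1 point per gene, with the list median in orange and the median of all genes (−0.21) as a dashed line. The medians run from −1.33 for epithelial and basal markers to 0.71 for the other ERBB ligands, and the reference genes have a median of −0.77.

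ERBB2 lies on chromosome 17 among genes that are often amplified with it. Of these neighbours 10 of 14 were lower, beside 58.6% of all genes, with a median difference of −0.11. PGAP3, whose start lies 36 bases from that of ERBB2 in the stretch shown above, had 5.66, 5.67 and 5.95 and then 6.84, 5.16 and 5.13, a difference of −0.05 (SE 0.59). Its sign turned without RB-proficient array 3 (0.05) or the arrays labelled RB-deficient 2 (0.23) or 3 (0.24). Within arrays, ERBB2 minus PGAP3 was −0.79, −0.19 and −0.54 and then −2.86, −1.49 and −0.94. These did not overlap, and the means differed by −1.26. An exact two-sided permutation test gave p = 0.1, the smallest possible with 3 against 3 arrays. It decides nothing, since PGAP3 was also chosen after its values were seen. MIEN1, a further neighbour, differed by −3.40 (SE 0.94), and by −2.16 once RB-deficient 1, where it was at the floor, was left out. CDK12, a transcription kinase of the same region, differed by −1.13 (SE 0.48), without overlap.

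Among 14 factors tied to transcription of ERBB receptors 11 were lower, beside 58.6% of all genes, with a median of −0.39. TFAP2A, an AP-2 factor that binds ERBB2 regulatory regions, had 7.95, 7.15 and 7.76 and then 6.03, 6.28 and 6.59, and differed by −1.32 (SE 0.49, adjusted p 0.289). EHF, an epithelial ETS factor, differed by −2.06 (SE 0.66), which was −0.64 without the arrays labelled RB-deficient 1 and 2. Both lay lower without overlap. PGR, the progesterone receptor, was higher without overlap, with 5.29, 5.26 and 5.34 and then 6.92, 7.40 and 6.46 (difference 1.63, SE 0.49).

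Among genes with a mean level above the median of all genes, those closest to ERBB2 in their 6 values were CDCP1 (r = 0.997), DDRGK1 (0.995), WDR6 (0.995), GDF10 (0.994) and GNPTG (0.991). Their differences ran from −2.68 (DDRGK1) to −1.08 (WDR6), all 5 without overlap. For EGFR the closest were CHODL (0.996), E2F4 (0.989), LOC100130331 (0.986), LRRC8D (0.984) and LONRF1 (0.981). With 6 arrays such values are common: 123 of 9208 genes had r over 0.95 with ERBB2 and 59 of 9207 with EGFR. Between members, NRG1 followed ERBB2 at r = 0.95 and EGFR at 0.86, and ERBB4 ran opposite to NRG1 at −0.89. All of these share the scaling of the arrays and the difference between the groups.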

How the data were processed

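Total RNA of 6 samples was amplified with WT-Ovation Pico, labelled with biotin and hybridised to 1 array each, per the labels' protocols. The authors used Affymetrix Expression Console 1.1, per the submitters' processing notes, and deposited linear probe set intensities, 1 per array. How they were background-corrected, summarised and normalized is not given in the sources used here. Of 33297 probe sets, 19460 had 1 gene symbol in the platform annotation, 1754 several, and 12083 were not listed. Arrays were scaled to a common median, values under 1 set to 1 and log2 taken. No detection calls entered, so dim signals may be background. The comparison used limma 3.58.1 (R 4.3.3) with lmFit, eBayes and two-sided tests without covariates, and Benjamini-Hochberg adjustment over 18417 genes and an adjusted threshold of 0.05. The number of arrays limits the precision. The fit was tested on simulated data with normal noise, the same spread in both groups and no floor. The arrays differ from that, with median gene SDs of 0.4 (RB-proficient) and 0.84 (labelled RB-deficient) and genes at the floor. The members, the 18 gene lists (191 symbols, 172 measured), and with them the tests and 18 of the 19 other settings, were chosen with earlier results of these data known. Named were all members, RB1, ACTB, GAPDH, up to 4 genes of smallest p per list, and 5 genes closest in pattern to ERBB2 and to EGFR. The 14 reference genes, of which 11 were measured, were among these lists. Genes named outside the rule, such as ADAM17, EPGN, EPCAM, KRT14, KRT8, KRT18, COL3A1 and THY1, were chosen after their values were seen. Promoter sequences are RefSeq's.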

Additional observations from a re-analysis of the deposited data

How the results depend on the processing

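Over 19 alternatives, 18 planned and 1 added after seeing the data (centring on the reference genes), 0 members passed an adjusted p of 0.05. EGFR, ERBB2, ERBB3, ERBB4 and NRG1 kept their sign in each alternative that gave them a value, and the filter on the dimmest 50% kept only 4 members. Genes past the threshold numbered 1 with the settings used, 0 with quantile normalization, without the dimmest 25%, without the arrays labelled RB-deficient 1 and 2 and with reference centring, 4 without the dimmest 50%, 58 with a floor of 16, 61 with eBayes with trend and robust, and 193 with an offset of 16. With single arrays left out they numbered 0 to 4. The median member difference of −0.50 was 0.23 with reference centring and −0.79 to −0.59 with single arrays left out. The members lower without overlap numbered 3, 0 with reference centring, 2 with the mean of probe sets, 2 without the dimmest 50%, and 3 to 4 with single arrays left out. Those higher without overlap numbered 1, 0 without scaling, 0 without the dimmest 50%, and 2 without the arrays labelled RB-deficient 1 and 2. The share of higher genes among those with p under 0.05 before adjustment was 20.8%, 32.5% with centring on the gene median and 88.0% with reference centring.

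Signs turned as follows. BTC was 0.08 with a floor of 16, 0.09 with array weights, 0.75 without RB-deficient 1 and 2, and 0.38 with reference centring. Without RB-deficient 1 and 2, HBEGF was 0.08, TGFA −0.08, EPGN −0.28 and NRG2 −0.47. With reference centring, EREG was 0.48, HBEGF 0.23 and PGAP3 0.68. PGAP3 was 0.09 with centring on the gene median, and EPGN −0.03 with array weights. With single arrays left out the differences ran from −0.62 to 0.05 for EREG, −0.96 to 0.20 for HBEGF, −0.16 to 0.42 for TGFA, −0.91 to 0.43 for BTC, −0.61 to 0.24 for PGAP3 and −0.25 to 0.52 for EPGN. The cause was not tested.

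Deviations of same-numbered arrays correlated at −0.12, 0.07 and −0.11. With 3 arrays per group this cannot settle whether same-numbered arrays were handled together, and the labels do not say. With the replicate block 1 gene passed, and ERBB2 had an adjusted p of 0.390 and ERBB3 of 0.165.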
